A study of Mus musculus with 2 samples.

Results

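The granule proteases described here were 9 of the 32285 genes in the matrix: Cma1, Mcpt1, Mcpt2, Mcpt4, Mcpt8, Tpsab1, Tpsb2, Cpa3 and Ctsg, found by symbol, each with 1 row. They were measured in fetal mouse lung at gestation day 18, in live CD45+ cells that lacked lineage markers and carried ST2, the receptor for IL-33. The mothers were wild-type C57BL/6J mice of 9 weeks that drank either dexamethasone, a synthetic glucocorticoid (DEX, 1.3 µg/ml), or PBS from gestation day 12, and no group carried a transgene. Lungs were pooled by litter (litters DEX-1 and DEX-2 of 8 and 9 fetuses, litters PBS-1 and PBS-2 of 5 and 8), every litter carried its own hashtag antibody, and all were run as 1 droplet library of 5′ transcript ends, so that a litter is the replicate, with 2 per group.

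Mast cells and basophils store serine proteases and a carboxypeptidase in their secretory granules, bound to the proteoglycan serglycin. The chymase family holds Cma1 and Mcpt4, typical of connective tissue mast cells, and Mcpt1 and Mcpt2, typical of mucosal mast cells. Tryptases cleave after basic residues (Tpsab1 and Tpsb2), and carboxypeptidase A3 (Cpa3) trims the ends of peptides. Mcpt8 marks mouse basophils, and Ctsg encodes cathepsin G, best known from neutrophil and monocyte granules and their precursors. Mrgprb2 is the receptor through which connective tissue mast cells answer basic peptides and drugs, and Mrgprb1 is a related receptor of the same family.

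A group of 6 genes lay together on chromosome 14 within 161.1 kb (chr14:55941451-56102574, GRCm38), in the order Cma1, Mcpt1, Mcpt2, Mcpt4, Mcpt8 and Ctsg. The 2 tryptase genes lay within 25.9 kb on chromosome 17 (chr17:25343245-25369098), and Cpa3 lay alone on chromosome 3 (chr3:20215620-20242181). Transcripts of Mcpt1 and Mcpt4 were 85.6% identical over 976 aligned bases and those of Mcpt1 and Mcpt2 82.2%, against 69.3% for the 2 tryptases. Between the longest coding transcripts no stretch of 50 bases was shared by any pair of the 9 genes (0 shared words in each pair), so that none of these pairs shares a whole stretch of that length.

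The 250 bases upstream of the start site, from RefSeq (GRCm38.p6), were at hand for 6 of the genes, and Mcpt2, Tpsab1 and Tpsb2 had no entry. Mcpt1 and Mcpt4 are shown because they differed in opposite directions between Mrgprb1-positive and Mrgprb-negative mast-like cells, Cma1 as the most abundant gene and Mcpt8 as the basophil gene. They lie at chr14:56017714-56017963 (plus strand, Mcpt1), chr14:56062311-56062560 (minus, Mcpt4), chr14:55944676-55944925 (minus, Cma1) and chr14:56085198-56085447 (minus, Mcpt8). In GENCODE M21 Mcpt8 and Mcpt4 start at 56085273 and 56062313, inside these windows, so their last bases lie within the genes there. Distances are from the RefSeq start. Capitals mark every match, on either strand, to GATAA (the core bound by GATA factors), TGTGGT (the core bound by RUNX factors) and TATAAA (the TATA box), and no matches overlapped.
Mcpt1: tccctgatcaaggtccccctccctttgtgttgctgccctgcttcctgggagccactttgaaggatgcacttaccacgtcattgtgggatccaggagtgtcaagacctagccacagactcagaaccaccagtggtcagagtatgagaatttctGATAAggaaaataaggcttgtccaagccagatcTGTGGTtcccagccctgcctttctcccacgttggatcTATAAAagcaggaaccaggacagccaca
Mcpt4: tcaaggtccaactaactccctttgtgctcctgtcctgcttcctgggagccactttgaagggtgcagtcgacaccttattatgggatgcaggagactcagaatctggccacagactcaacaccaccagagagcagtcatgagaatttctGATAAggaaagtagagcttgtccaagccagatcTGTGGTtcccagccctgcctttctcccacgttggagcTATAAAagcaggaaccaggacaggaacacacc
Cma1: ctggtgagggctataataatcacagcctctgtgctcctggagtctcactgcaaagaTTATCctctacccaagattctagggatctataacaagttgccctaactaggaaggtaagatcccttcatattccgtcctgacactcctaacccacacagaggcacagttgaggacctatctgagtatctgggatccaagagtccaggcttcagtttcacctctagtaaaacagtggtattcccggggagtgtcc
Mcpt8: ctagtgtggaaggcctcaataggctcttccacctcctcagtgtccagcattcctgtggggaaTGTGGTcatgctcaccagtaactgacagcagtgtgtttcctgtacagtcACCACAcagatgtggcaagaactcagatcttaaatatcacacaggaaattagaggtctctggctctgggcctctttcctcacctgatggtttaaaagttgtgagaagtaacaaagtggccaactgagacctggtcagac

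The windows of Mcpt1 and Mcpt4 were 86.4% identical over 242 aligned bases and held the same 3 motifs in the same order, with GATAA starting 98 and 102 bases, TGTGGT 65 and 69 bases, and TATAAA 28 and 32 bases before the start site. Cma1 held 1 GATAA on the opposite strand, 194 bases upstream, and Mcpt8 held TGTGGT once on each strand and neither of the other motifs. Among all 32851 mouse windows of this length, 22.6% held GATAA, 14.05% TGTGGT and 12.4% TATAAA, and a match is a description of letters only.

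After hashtag assignment 7268 cells remained, 1737 to 1890 per litter, with a median of 7458 to 8325 UMIs (unique molecular identifiers, counts of distinct RNA molecules) per cell. Hashtag assignment gave each of these barcodes to 1 litter. Cells were clustered without the 9 genes, Mrgprb1 and Mrgprb2, and clusters were called by their marker genes. Mast-like cells numbered 2316 (31.9% of all), in an H19-led cluster of 1317 and an Mrgprb2-led cluster of 999, basophil-like cells 488, and mast or basophil progenitor-like cells 642, led by Gzmb, Car1 and Prtn3. Hdc, the histamine-making enzyme, was seen in 99.57% to 100% of mast-like cells and Kit, the stem cell factor receptor, in 92.1% to 93.5%, for cells above and below a load of proteases defined below with the protease RNA of other classes. Neither gene alone marked mast-like cells, since Hdc was seen in 99.8% to 100% of basophil-like cells and Kit in 76.8% of ILC2-like cells. Ms4a2, a chain of the IgE receptor, was seen in 36.6% to 37.2% of mast-like and 82.1% to 83.3% of basophil-like cells. Litters gave 525 to 620 mast-like cells and 63 to 178 basophil-like cells. Levels are UMIs per 1000000 UMIs of the summed cells (CPM). They are not scaled by transcript length, so that levels are compared between cells for 1 gene and not between genes.

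The 9 genes together took 5.19% ± 0.41 of the UMIs of mast-like cells (SD, n = 4 litters), 0.57% ± 0.14 in basophil-like cells, 0.88% ± 0.33 in progenitor-like cells and 0.0094% ± 0.0049 in ILC2-like cells. Mast-like cells held 81.8% of all Cma1 UMIs, 89.8% of Tpsb2, 90.0% of Tpsab1, 85.2% of Mcpt4, 79.6% of Mcpt2, 78.4% of Mcpt1 and 73.0% of Cpa3. Basophil-like cells held 83.5% of Mcpt8 and 44.96% of Ctsg. Progenitor-like cells held 29.5% of Ctsg, 19.6% of Mcpt1 and 18.0% of Cpa3. Levels by class are a description, since the class names were set from the same cells.

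Cma1, the mouse alpha-chymase, stood at 22004 and 23753 CPM in the mast-like cells of DEX-1 and DEX-2 and at 23764 and 26782 in PBS-1 and PBS-2. The next class, progenitor-like cells, reached 2038, 5131, 4526 and 5773 CPM in the same order, below all mast-like sums. Tpsb2, a tryptase, stood at 12668, 13190, 13923 and 15206 CPM in mast-like cells and at 285 to 1058 in progenitor-like cells, with mesenchymal-like cells next to mast-like ones at 982 to 2235. Cpa3 was spread more widely, at 8837 to 9925 CPM in mast-like, 1832 to 3917 in progenitor-like and 1300 to 1929 in basophil-like cells. Mast-like cells were highest for these 3 genes in every litter, and for Cpa3 the ranges of progenitor-like and basophil-like cells overlapped at 1832 to 1929.

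Mcpt4 was at 1936 to 3155 CPM, Tpsab1 at 679 to 1374 and Mcpt2 at 716 to 1348 in mast-like cells, each above every other class in which all 4 litters were summed. Mcpt1 was at 291, 29.5, 244 and 79.9 CPM in mast-like cells, and its litter range overlapped that of progenitor-like cells (0.36 to 178). The spread of Mcpt1 came with few cells. The 4 highest of 2316 cells held at least 0.5 of its mast-like UMIs, and 1 cell of DEX-1 held 55.8% of that litter's Mcpt1. The same fraction was reached by 35 cells for Mcpt2 and 75 for Mcpt4, against 273 cells for Tpsab1, 443 for Cpa3, 497 for Tpsb2 and 524 for Cma1.

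Mcpt8 stood at 1360, 2811, 2998 and 2013 CPM in basophil-like cells of DEX-1, DEX-2, PBS-1 and PBS-2, and 84.2% of these cells had a UMI (95% exact interval 80.7 to 87.3). Progenitor-like cells were next, at 77.0, 74.7, 85.5 and 147 CPM, and mast-like cells were at 17.2 to 38.4. Ctsg was also highest in basophil-like cells, at 721, 391.9, 497 and 1051 CPM, against 53.0 to 176 in progenitor-like and 48.4 to 72.7 in mast-like cells. Within the basophil-like class the smaller cluster of 49 cells, led by Mcpt8, Mpo, Prss34 and Ctsg with a replication histone gene, had 1219 CPM of Ctsg and 3576 of Mcpt8, and the larger one of 439 cells had 450 and 2176, all litters pooled. The smaller cluster could be summed only in DEX-2 (25 cells, 946 CPM of Ctsg and 3732 of Mcpt8), and in the larger one Ctsg ranged from 197 to 852 by litter. The plot of levels by class and litter shows the 9 patterns side by side.

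**Figure D1:**
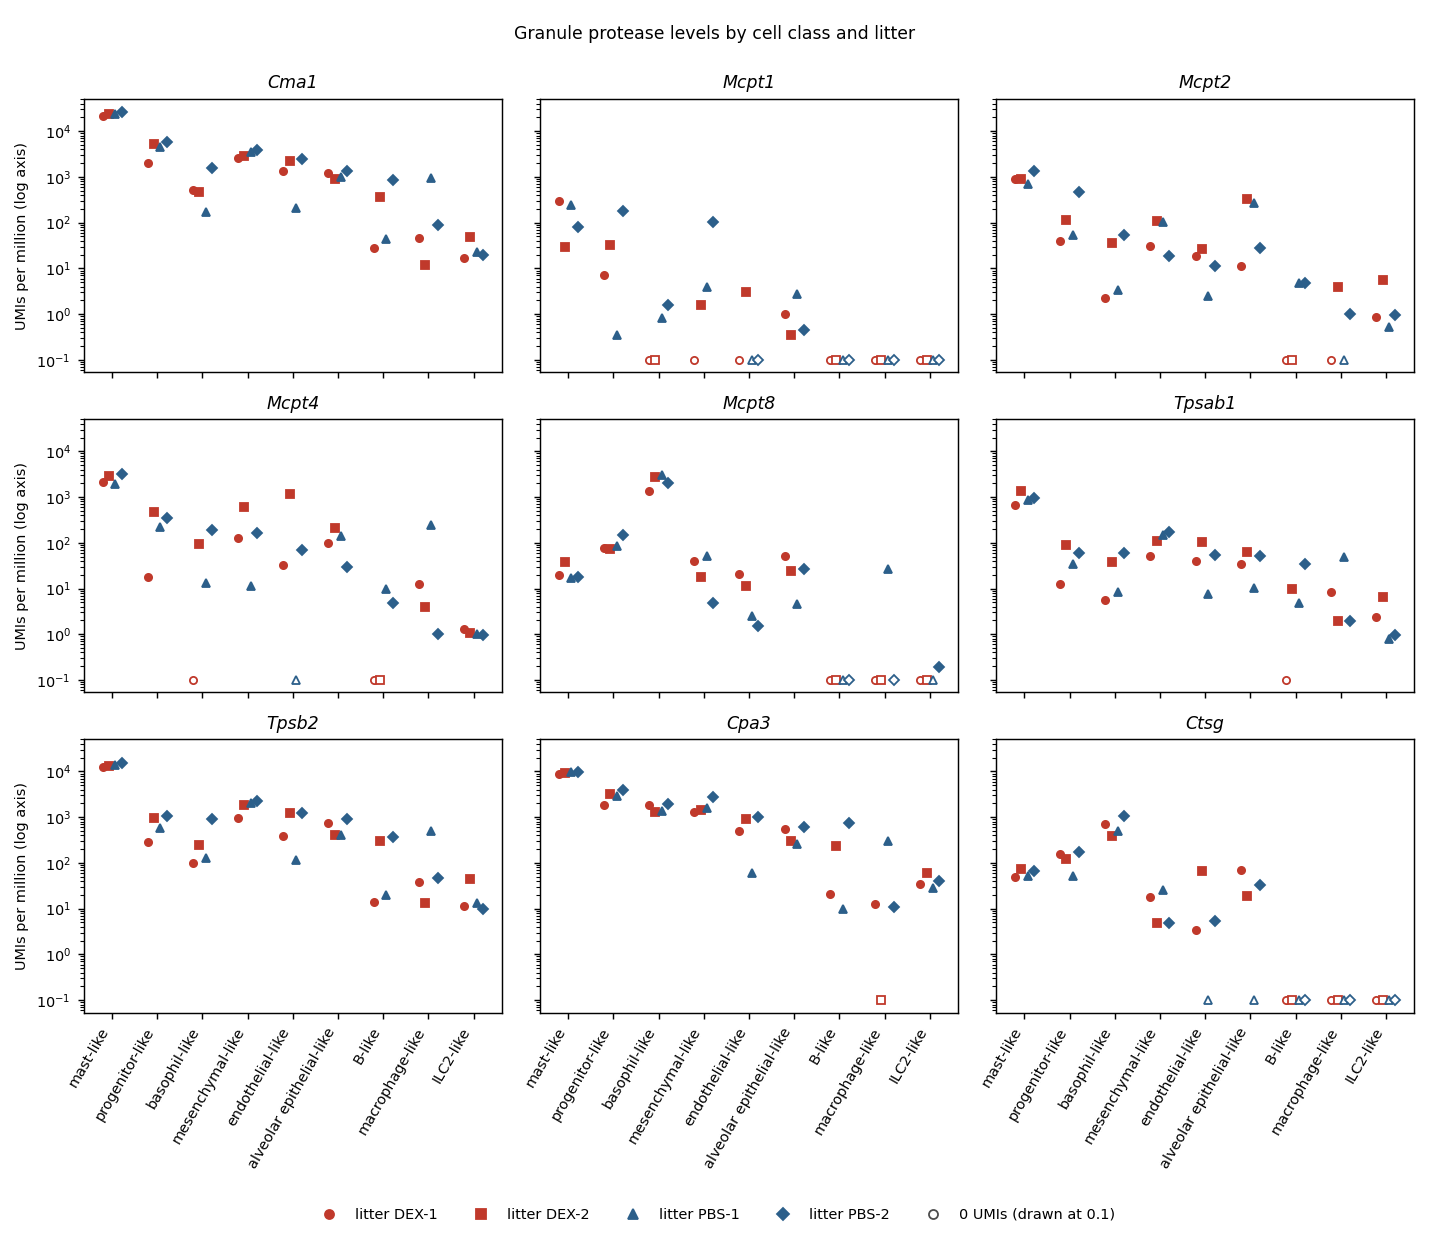
CPM (log axis) of each gene in 9 cell classes, 1 point per litter, DEX litters in red and PBS litters in blue, with open marks drawn at 0.1 where a litter had 0 UMIs. Most genes are highest in mast-like cells, with Cma1 at 22004 to 26782, while Mcpt8 and Ctsg are highest in basophil-like cells.

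Finer clustering split the progenitor-like cells into clusters that differed in protease content. A Prtn3 and Mpo-led cluster of 223 cells had 45.1 CPM of Cma1, 82.2 of Cpa3, 1.25 of Mcpt8 and 0 of Mcpt2, but 190 of Ctsg. A Gzmb and Scin-led cluster of 299 cells had 5514 CPM of Cma1, 4663 of Cpa3 and 165 of Mcpt8, and a Gzmb-led cluster of 129 cells with cell division genes had 11869, 6228 and 159. By the same naming limits, only the cluster of 299 cells kept the progenitor-like name at this resolution. The clusters of 223 and 129 cells stayed unnamed, so the progenitor-like class is a mixed one. Among mast-like cells, the finer H19-led cluster of 783 cells had 14086 CPM of Cma1, 904 of Mcpt4 and 1426 of Mcpt2, whereas the 2 Mrgprb2-bearing clusters of 717 and 267 cells had 35739 and 56639 of Cma1, 4177 and 4562 of Mcpt4, and 406 and 643 of Mcpt2. Cma1 and Mcpt4 were thus higher, and Mcpt2 lower, in both than in the H19-led one, and another cluster of 541 cells lay between them for all 3 genes (23566, 3311 and 867). Depth differed too, with medians of 8202 UMIs per cell in the H19-led cluster, 4816 and 2337 in the Mrgprb2-bearing ones and 8188 in the cluster of 541 cells. The part of depth in these levels was not tested.

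Mast-like cells were then split by the Mrgprb receptors, which were not used in clustering but were in the marker list that named mast-like clusters. Cells with a UMI of Mrgprb1 were called Mrgprb1-positive (162 cells, 38 to 43 per litter), cells with a UMI of Mrgprb2 but not of Mrgprb1 were called Mrgprb2-only (355 cells, 62 to 104 per litter), and the other 1799 were called Mrgprb-negative. Of the Mrgprb1-positive cells, 133 also had Mrgprb2, and 33 had a single Mrgprb1 UMI. Of the 355 Mrgprb2-only cells, 184 had a single Mrgprb2 UMI. The bins differed in depth, with medians of 8114.5, 4601 and 6668 UMIs per cell, and 70.4%, 74.9% and 34.4% of their cells were in the Mrgprb2-led cluster. The 9 genes took 4.43% ± 0.41 of UMIs in Mrgprb-negative, 7.10% ± 0.41 in Mrgprb2-only and 9.97% ± 1.00 in Mrgprb1-positive cells (SD, n = 4), and 22.4% in the highest cell.

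Sums per litter and bin were compared with litter as a term, over 6079 genes. Between Mrgprb1-positive and Mrgprb-negative cells 5 of the 9 genes were higher and 3 lower, against 11.9% of all genes called higher and 9.62% called lower (edgeR's quasi-likelihood test with Benjamini-Hochberg adjustment, here and for all adjusted p below). Scaling by library totals in place of TMM (trimmed mean of M-values) factors moved the median of all genes by -0.15 on the log2 scale and the share of calls that were higher from 55.2% to 33.8%, and for the Mrgprb2-only contrast by -0.12 and from 53.1% to 30.7%. The split of calls between Mrgprb1-positive and Mrgprb2-only cells went from 56.1% to 46.0% higher. Under library totals all 9 genes kept their direction in the contrast of Mrgprb1-positive with Mrgprb-negative cells, and Tpsab1 (0.19) was no longer called.

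Mcpt4 stood at 10876, 13162, 9369 and 16546 CPM in the Mrgprb1-positive cells of DEX-1, DEX-2, PBS-1 and PBS-2, at 1405, 2112, 1230 and 1948 in Mrgprb-negative cells, and at 2099, 1797, 883 and 2621 in Mrgprb2-only cells. Every Mrgprb1-positive sum lay above every other. The log2 difference was 3.03 ± 0.12 (SE, adjusted p = 1.35e-15) from Mrgprb-negative cells and 2.83 ± 0.12 (adjusted p = 2.96e-14) from Mrgprb2-only cells. Mrgprb2-only and Mrgprb-negative cells did not differ beyond the test (0.20 ± 0.12, adjusted p = 0.27), though without litter PBS-1 the difference was called at 0.38. Within the Mrgprb2-led cluster alone it was -0.85 and called, and Mrgprb1-positive cells were still 1.28 above Mrgprb-negative ones there. After thinning each cell to 2000 UMIs, Mcpt4 was seen in 55.3% of Mrgprb1-positive, 32.0% of Mrgprb2-only and 30.8% of Mrgprb-negative cells (unthinned 64.2%, 41.7% and 43.1%).

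Tpsb2, Cpa3 and Cma1 rose in both receptor-bearing bins. Tpsb2 was at 23846 to 30065 CPM in Mrgprb1-positive, 18057 to 23275 in Mrgprb2-only and 10234 to 12957 in Mrgprb-negative cells, and it was higher by 1.40 ± 0.07 (adjusted p = 2.55e-13) and 0.96 ± 0.07 (adjusted p = 1.12e-09) than in Mrgprb-negative cells. Cpa3 was at 15535 to 19158, 9611 to 11398 and 7809 to 8869 CPM, with differences of 1.20 ± 0.07 (adjusted p = 3.53e-13) and 0.46 ± 0.06 (adjusted p = 1.31e-05). Cma1 was at 35448 to 46488, 34519 to 39103 and 18767 to 22742 CPM, with differences of 1.12 ± 0.06 (adjusted p = 3.29e-13) and 0.93 ± 0.06 (adjusted p = 6.23e-11). No Mrgprb-negative sum of these genes overlapped a receptor-bearing one. Between the 2 receptor-bearing bins, Cpa3 (0.74 ± 0.07, adjusted p = 3.99e-08) and Tpsb2 (0.45 ± 0.07, adjusted p = 0.000313) were higher with Mrgprb1, and Cma1 was not called (0.19 ± 0.06, adjusted p = 0.0561), though it was in cells of 5000 UMIs or more (0.30) and within the H19-led cluster (0.67).

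Mcpt2 and Mcpt1 fell. Mcpt2 was at 1039, 1059, 850 and 1677 CPM in Mrgprb-negative cells of DEX-1, DEX-2, PBS-1 and PBS-2, at 44.2, 354, 454 and 187 in Mrgprb2-only cells, and at 30.2, 40.8, 40.1 and 22.5 in Mrgprb1-positive cells. The 3 ranges did not overlap, and the log2 differences were -2.06 ± 0.25 (adjusted p = 2.63e-06) for Mrgprb2-only, -5.00 ± 0.38 (adjusted p = 2.94e-10) for Mrgprb1-positive against Mrgprb-negative cells and -2.93 ± 0.46 (adjusted p = 0.000184) between the receptor-bearing bins. After thinning, 28.5%, 12.2% and 5.92% of cells had a Mcpt2 UMI. Few cells set these levels: at least 0.5 of the Mcpt2 UMIs was held by 32 of 1799 Mrgprb-negative and 3 of 355 Mrgprb2-only cells. In the latter bin 1 cell held 23.5% of its 544 Mcpt2 UMIs, and all Mrgprb1-positive cells together had 43. Mcpt2 was thus lower in both receptor-bearing bins, whereas Mcpt4, its neighbour on chromosome 14, was higher in Mrgprb1-positive cells and not called in Mrgprb2-only cells. In cells of 5000 UMIs or more, the differences of Mrgprb1-positive from Mrgprb-negative cells were 3.49 for Mcpt4, 1.503 for Tpsb2, 1.21 for Cpa3, 1.17 for Cma1 and -5.23 for Mcpt2, and with bins cut after thinning they were 3.55, 1.44, 1.17, 1.12 and -5.33, all called.

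Mcpt1 had only 4 UMIs in all Mrgprb1-positive cells (0, 1, 2 and 1 by litter, where 3 counts would be 8.73 to 10.1 CPM), against 2367 in Mrgprb-negative cells. Its difference of -5.79 ± 0.73 (adjusted p = 1.22e-06) thus rests on a few counts on one side and few cells on the other, where 3 cells held at least 0.5 of the UMIs. In Mrgprb2-only cells 1 cell held 90.4% of the Mcpt1 UMIs, and the difference of -1.77 ± 0.34 (adjusted p = 0.000611) became -4.23 without PBS-1 and -1.13 without DEX-1, and was lost without the litter term (adjusted p = 0.141). The difference of -4.02 ± 1.03 (adjusted p = 0.0178) between receptor-bearing bins was lost without PBS-1 (-1.75), without the litter term (adjusted p = 0.354) and by DESeq2 (adjusted p = 0.309).

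Calls for Tpsab1, Ctsg and Mcpt8 depended on single litters or on the fit. Tpsab1 was at 895 to 1185 CPM in Mrgprb1-positive, 851 to 1361 in Mrgprb2-only and 642 to 1394 in Mrgprb-negative cells, ranges that overlapped. Its differences of 0.32 ± 0.10 (adjusted p = 0.0176) and 0.29 ± 0.09 (adjusted p = 0.0319) were called, but neither without the litter term (adjusted p = 0.334 and 0.368), and the first was lost without DEX-1 (0.24), PBS-1 (0.26) or PBS-2 (0.30), the second without DEX-1 (0.23) or PBS-1 (0.24). Ctsg was at 20.4 to 30.8 CPM in 3 litters and 3.21 in PBS-2 in Mrgprb1-positive cells, against 51.3 to 82.9 in Mrgprb-negative ones (-1.57 ± 0.41, adjusted p = 0.00661), and the call was lost without DEX-2 (-1.43) and by DESeq2 (adjusted p = 0.19). In Mrgprb2-only cells Ctsg was not called (-0.52 ± 0.28, adjusted p = 0.224) unless PBS-2 was left out (-1.25). Between the receptor-bearing bins Ctsg was not called (-1.06 ± 0.51, adjusted p = 0.263). It was called there without PBS-1 (-1.73), and with all litters when the filter on low counts was dropped (-1.14, adjusted p = 0.015). Mcpt8 was lower in Mrgprb2-only cells (-1.03 ± 0.34, adjusted p = 0.0356). That call depended on DEX-1 (-1.01 when left out), PBS-1 (-1.13) and the litter term (adjusted p = 0.157 when dropped), and DESeq2 did not make it (-0.94, adjusted p = 0.167). In Mrgprb1-positive cells Mcpt8 was not called (-0.78 ± 0.38, adjusted p = 0.165).

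In the contrast of Mrgprb2-only with Mrgprb-negative cells 4 of the 9 genes were called higher and 3 lower, where 9.8% and 8.65% of all genes were. Between Mrgprb1-positive and Mrgprb2-only cells 3 were higher and 2 lower, against 3.47% and 2.71% of all genes, and Tpsab1 (0.03 ± 0.10, adjusted p = 0.926) and Mcpt8 (0.26 ± 0.53, adjusted p = 0.862) were not called there. These 3 contrasts share their bins and are not independent of each other. The plots of levels by bin and of the differences show both the rising and the falling genes.

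**Figure D2:**
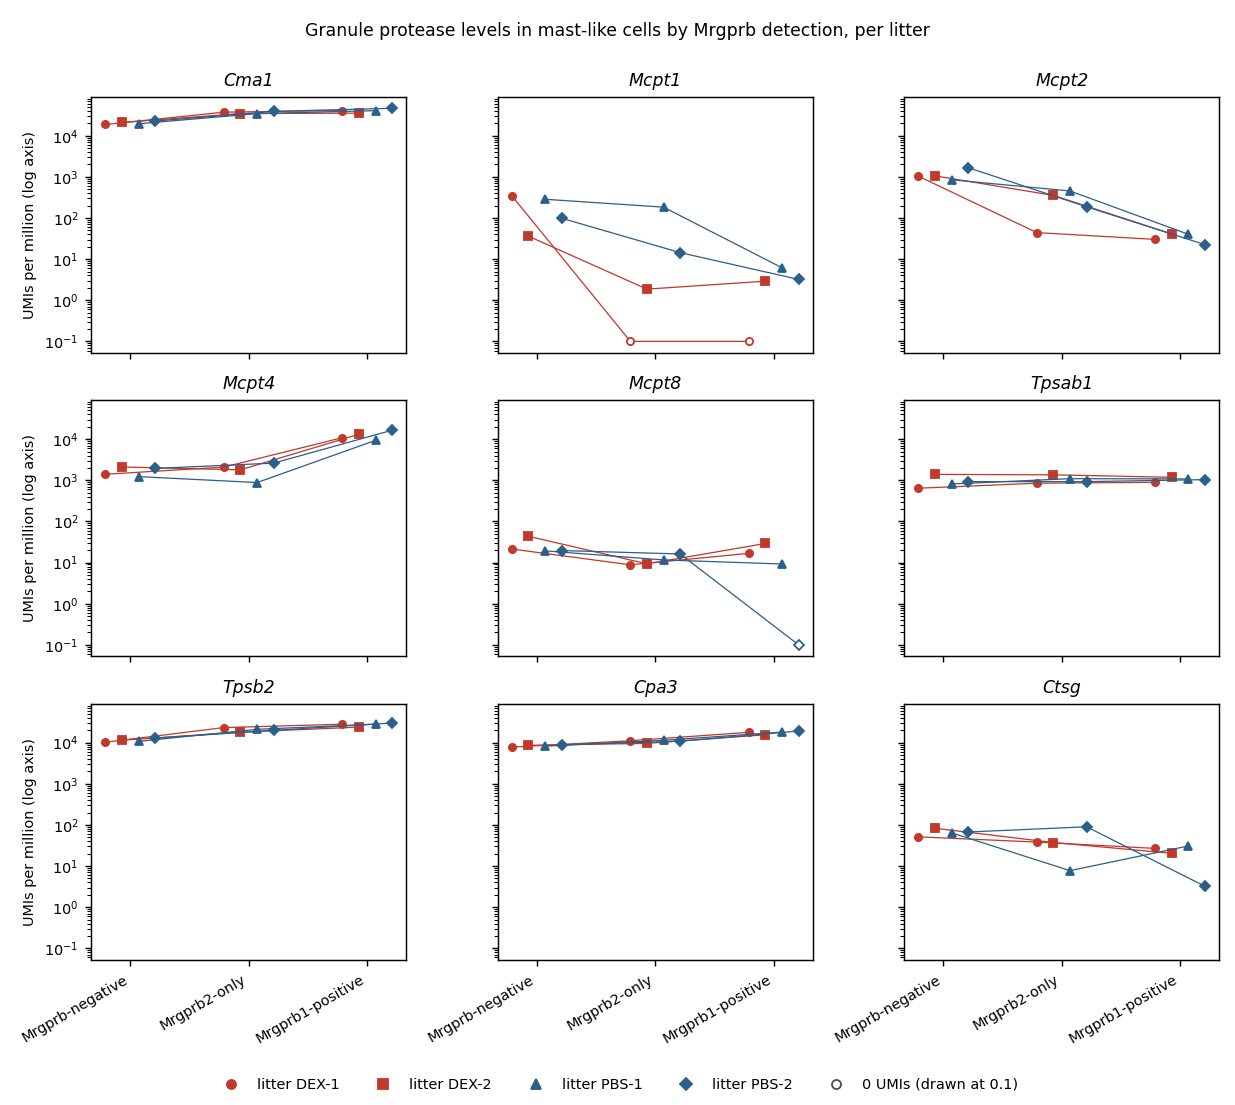
CPM (log axis) in the 3 Mrgprb bins of mast-like cells, lines joining the sums of 1 litter and open marks at 0.1 standing for 0 UMIs. Mcpt4 climbs to 9369 to 16546 only with Mrgprb1, whereas Mcpt2 falls to 22.5 to 40.8 in all 4 litters.

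**Figure D3:**
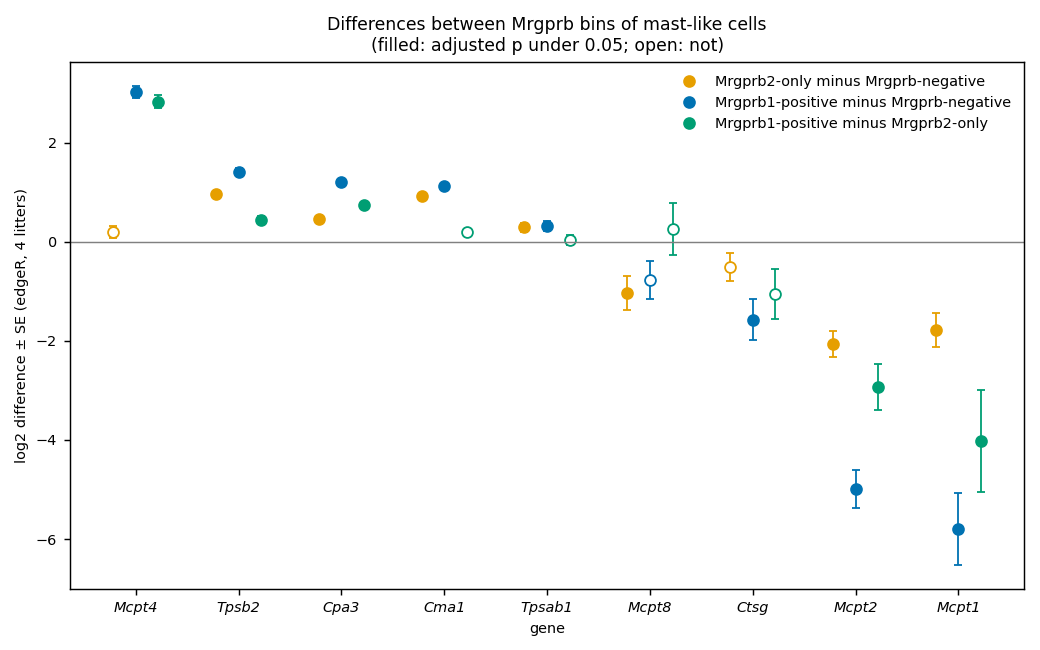
Log2 differences between the bins with their SE (edgeR, 4 litters), filled where the adjusted p is under 0.05 and open where it is not. Mcpt4, Tpsb2, Cpa3 and Cma1 lie above 0 for Mrgprb1-positive against Mrgprb-negative cells (1.12 to 3.03) and Mcpt2 and Mcpt1 far below it (-5.00 and -5.79).

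Genes that pack, process or inhibit granule proteases were read in the same contrasts. Of 18 tested packaging genes 7 were higher and 2 lower in Mrgprb1-positive than in Mrgprb-negative cells, where 11.9% and 9.62% of all genes were, with a median of 0.20 against -0.02 for all genes. Srgn, which encodes serglycin, rose by 0.75 ± 0.06, Ndst2, which sulfates heparin, by 0.65 ± 0.11, and Lamp2 and Lamp1, membrane proteins of lysosome-like granules, by 0.65 ± 0.13 and 0.62 ± 0.11, while Rab44 fell by 0.47 ± 0.12, a call lost without DEX-2 (-0.41) or the litter term (-0.46). Of 10 tested processing and inhibitor genes 9 were higher and 0 lower, with a median of 0.82. Among them were the serine protease inhibitors Serpinb6a (1.51 ± 0.18) and Serpinb1a (1.44 ± 0.07), the peptidase Dpp7 (1.19 ± 0.22), the cathepsin inhibitor Cst7 (0.99 ± 0.09) and Ctsd, encoding cathepsin D (0.89 ± 0.09). Of 4 tested other granule serine proteases, Prss34, a basophil and mast cell protease, rose by 1.46 ± 0.20 and Gzmb, granzyme B, fell by 5.27 ± 0.32. Within the Mrgprb2-led cluster, which held different shares of the bins, Lamp1 (0.30), Dpp7 (0.61) and Prss34 (0.58) were not called, and within the H19-led cluster Lamp2 (0.53) and Rab44 (-0.34) were not.

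In Mrgprb2-only cells 5 of 18 packaging genes were higher and 2 lower, where 9.8% and 8.65% of all genes were, among them Srgn (0.56 ± 0.06), Cd63 (0.41 ± 0.06), Lamp1 (0.42 ± 0.10), Ext1 (-0.46 ± 0.10) and Rab44 (-0.45 ± 0.11). Of 10 processing and inhibitor genes 4 were higher (Serpinb1a 0.75 ± 0.07, Cst7 0.72 ± 0.09, Cst3 0.57 ± 0.08 and Cstb 0.44 ± 0.11) and 1 lower (Ctsl, -1.16 ± 0.30). Of 4 other granule serine proteases, Prss34 (0.79 ± 0.20) and Cma2 (0.61 ± 0.18), a chymase relative, were higher and Gzmb lower (-4.10 ± 0.23). Within the H19-led and the Mrgprb2-led cluster alone, where fewer genes were tested and called, neither Lamp1 (0.43 and 0.049), Cd63 (0.13 and 0.20), Cst7 (0.49 and 0.31), Cst3 (0.36 and 0.20), Cstb (0.30 and 0.11), Prss34 (0.29 and 0.28) nor Cma2 (0.52 and 0.40) was called in either, and Serpinb1a (0.33) was not in the former. Single litters decided several of these calls. Rab44 was lost without DEX-2 (-0.41), Ctsl without DEX-1 (-0.88) or PBS-1 (-1.09), Cstb without DEX-2 (0.43) or PBS-2 (0.30), and Cma2 without DEX-1 (0.58), DEX-2 (0.67) or PBS-1 (0.40). Without the litter term the calls of Rab44, Ctsl, Cstb, Prss34 and Cma2 were lost in this contrast (adjusted p from 0.0554 to 0.0764), and DESeq2 did not call Prss34 (adjusted p = 0.145) or Ctsl (0.0503). In cells of 5000 UMIs or more and with bins cut after thinning, Ext1 (-0.36 and -0.35), Rab44 (-0.33 and -0.35) and Prss34 (0.67 and 0.81) were not called, nor was Cma2 after thinning (0.65). Between the receptor-bearing bins Lamp2 (0.69 ± 0.16), Serpinb6a (1.05 ± 0.21), Ctsd (0.78 ± 0.10) and Serpinb1a (0.69 ± 0.07) were higher with Mrgprb1 and none of the listed genes was lower, with Lamp2 lost without DEX-2 (0.60), PBS-2 (0.59) or the litter term (0.71), in cells of 5000 UMIs or more (0.60) and after thinning (0.52).

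Some of the genes varied together within mast-like cells. Over 2082 cells thinned to 2000 UMIs, the median over litters of Spearman's rho was 0.62 for Cma1 with Tpsb2, 0.31 for Cma1 with Cpa3, 0.31 for Tpsb2 with Cpa3 and 0.29 for the 2 tryptases. Mcpt2 went with Mcpt4 at 0.21 and with Mcpt1 at 0.20, and with Cpa3 at -0.13. Of the 36 pairs, 26 had a median between -0.1 and 0.1, such as Cma1 with Mcpt2 (-0.083). Mcpt1, Mcpt8 and Ctsg were seen in only 3.55%, 3.17% and 4.76% of the thinned cells. Ties at 0 draw rho toward 0 in pairs with these genes, so that count cannot show a lack of co-variation. Of cells with a Mcpt2 UMI 48.3% had Mcpt4, against 27.7% of cells without. These are descriptions over cells that share a library.

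To ask whether maternal DEX was accompanied by a change in the proteases, UMIs were summed per litter within each class and compared between the 2 DEX and 2 PBS litters. In mast-like cells 0 of 10488 genes were called (0.0% of all, 642 at an unadjusted p under 0.05; DESeq2 called 11), and in basophil-like cells 0 of 7424 (0.0%, 136 unadjusted; DESeq2 called 2). Log2 differences, DEX minus PBS, in mast-like cells were -0.14 ± 0.12 for Cma1, -0.17 ± 0.11 for Tpsb2, -0.10 ± 0.10 for Cpa3, -0.22 ± 0.24 for Mcpt2, -0.00055 ± 0.22 for Mcpt4, -0.0050 ± 0.76 for Mcpt1, 0.18 ± 0.25 for Tpsab1 and 0.040 ± 0.20 for Ctsg. Adjusted p ran from 0.71 to 1.0. Mcpt8 was the largest, at 0.76 ± 0.28 (unadjusted p = 0.0224, adjusted p = 0.71), with litters at 20.0 and 38.4 CPM in DEX and 17.2 and 17.7 in PBS, and it was 0.21 without DEX-2. It was called at 0.77 without the filter on low counts (adjusted p = 0.0145) and at 1.14 without DEX-1 (adjusted p = 0.0462).

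The DEX litters lay above both PBS litters for 1 gene (Mcpt8), as did 15.3% of all genes, and below both for 3 (Cma1, Tpsb2 and Cpa3), as did 18.5%. In basophil-like cells 8 genes were tested, since Mcpt1 with 0, 0, 1 and 1 UMIs did not pass the filter on low counts, and 0 of them separated the groups in either direction, where 13.0% and 13.6% of all genes did. Differences there were -0.26 ± 0.35 for Mcpt8, -0.45 ± 0.37 for Ctsg, -0.048 ± 0.23 for Cpa3, -0.73 ± 0.73 for Cma1, -1.51 ± 0.73 for Tpsb2, -0.87 ± 1.20 for Mcpt4, -0.098 ± 1.10 for Mcpt2 and -0.27 ± 0.88 for Tpsab1, none of them called (adjusted p = 1.0). Most of the mast genes' UMIs in this class came from a few barcodes: 12 of the 488 held 1824 of the 2273 Cma1 UMIs, 954 of the 1145 Tpsb2 UMIs and 244 of the 266 Mcpt4 UMIs, but 348 of the 10024 Mcpt8 UMIs. Tpsb2 was called with all litters when the filter on low counts was dropped (-1.46, adjusted p = 1.75e-07), and without DEX-2 (-2.29) or PBS-1 (-2.32), and was 0.40 without PBS-2. Calls also arose for Cma1 without PBS-1 (-1.58), and for Mcpt2 (-3.26), Mcpt4 (-9.39) and Tpsab1 (-2.33) without DEX-2, which left DEX-1 with 0 Mcpt4 UMIs (3 counts would be 3.39 CPM) as the only DEX sum. A lone litter is assumed in such fits to vary like the pair of the other group.

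A difference of the DEX effect between the classes was called for 0 of 10473 genes (0.0%, 297 unadjusted). Mcpt8 came closest among the proteases, at 0.98 ± 0.26 (mast-like minus basophil-like, unadjusted p = 0.0025, adjusted p = 1.0). The others were -0.038 ± 0.61 for Cma1, 4.22 ± 2.39 for Mcpt1, -0.16 ± 0.80 for Mcpt2, 0.82 ± 0.97 for Mcpt4, 0.50 ± 0.64 for Tpsab1, 0.96 ± 0.61 for Tpsb2, -0.048 ± 0.22 for Cpa3 and 0.47 ± 0.38 for Ctsg. Leaving out 1 litter called Mcpt4 without DEX-2 (10.3) or PBS-1 (1.97), Tpsb2 without PBS-1 (2.17), Cma1 without PBS-2 (-1.54) and Ctsg without DEX-1 (1.16). The share of Mrgprb1-positive cells was 6.64%, 7.18%, 7.62% and 6.61% in DEX-1, DEX-2, PBS-1 and PBS-2 (exact permutation p = 1.0), and that of Mrgprb2-only cells 10.8%, 16.4%, 17.3% and 16.8% (p = 0.3333, the smallest that an exact permutation test of 2 litters against 2 can give).

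**Figure D4:**
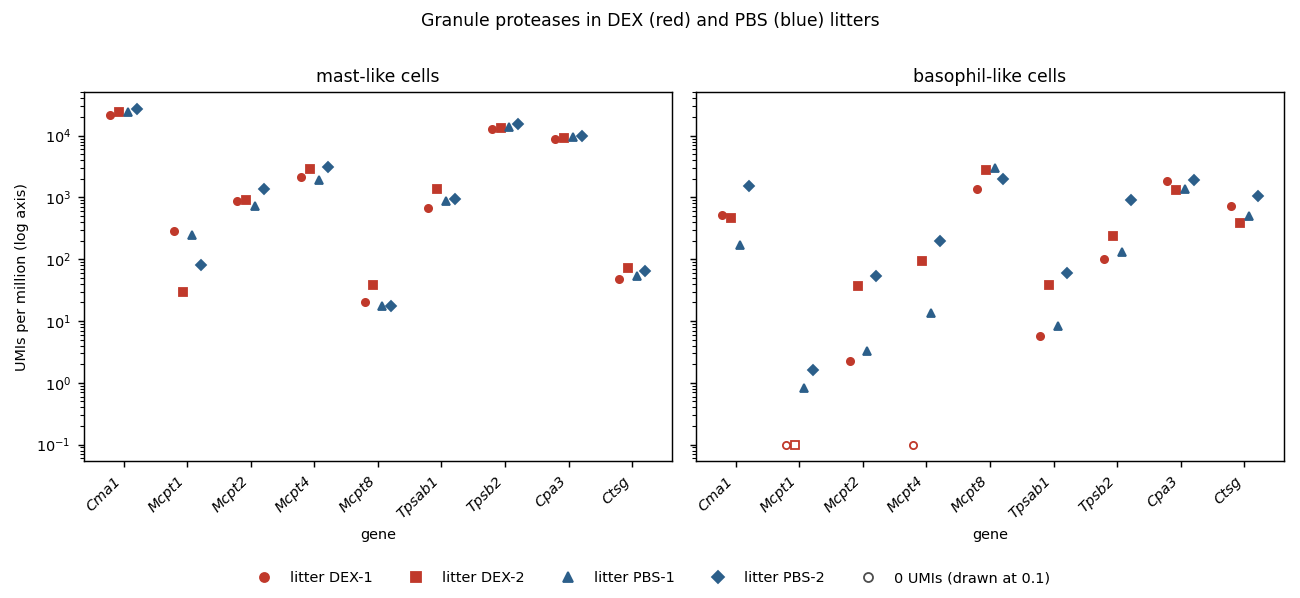
CPM (log axis) of the 9 genes in mast-like and basophil-like cells, DEX litters in red and PBS litters in blue, with open marks at 0.1 for 0 UMIs. The litters of both treatments lie among each other for most genes, while Mcpt8 in mast-like cells is at 20.0 and 38.4 in DEX and 17.2 and 17.7 in PBS.

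Protease RNA was also seen in cells of other classes. Its source was not tested. In ILC2-like cells 14.1% of 2074 cells had a Cma1 UMI (95% exact interval 12.6 to 15.7), 14.3% a Cpa3 UMI and 8.10% a Tpsb2 UMI. A Mcpt4 UMI was seen in 0.92%, a Mcpt8 UMI in 0.048%, and a Ctsg or Mcpt1 UMI in 0. That 0 allows a share of cells with a UMI at this depth of up to 0.178% (exact 95% bound). It does not limit the share of cells holding the transcript. The median depth was 7186 UMIs there and 6375.5 in mast-like cells, and after thinning to 2000 UMIs 5.32% of ILC2-like cells had Cma1 against 98.8% of mast-like cells. Levels were 25.6 CPM of Cma1 and 41.1 of Cpa3. Cma1 was at 47.9 CPM in DEX-2 and at 17.0 to 22.5 in the other litters. Cpa3 made up 45.3% of the 9 genes' UMIs in ILC2-like cells and 18.1% in mast-like cells, so the makeup differed between them. In mast-like cells 9.54% of cells had a Mcpt8 UMI and 9.24% a Ctsg UMI, above the ILC2-like shares of the same genes.

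Single barcodes of other classes carried as much protease RNA as mast-like cells. The load at the tenth percentile of mast-like cells, 183 UMIs per 10000, was reached by 32 of 428 alveolar epithelial-like, 23 of 269 endothelial-like, 25 of 190 mesenchymal-like, 135 of 642 progenitor-like and 12 of 488 basophil-like barcodes, and by 0 of 2074 ILC2-like ones. These held 72.7%, 90.3%, 69.7%, 68.2% and 21.1% of their class's UMIs of the 9 genes. Hdc was seen in 100% of them, and Kit in 93.8% of the epithelial-like, 95.7% of the endothelial-like and 92.0% of the mesenchymal-like ones, against 17.2%, 68.7% and 40.0% of the barcodes below that load. A pair of cells of 1 litter in 1 droplet shares a hashtag and was not removed, and the part of such pairs in these values was not tested. In progenitor-like cells the 135 barcodes held 41668 Cma1 UMIs but 224 Ctsg UMIs, of 1600 Ctsg UMIs in the class.

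**Figure D5:**
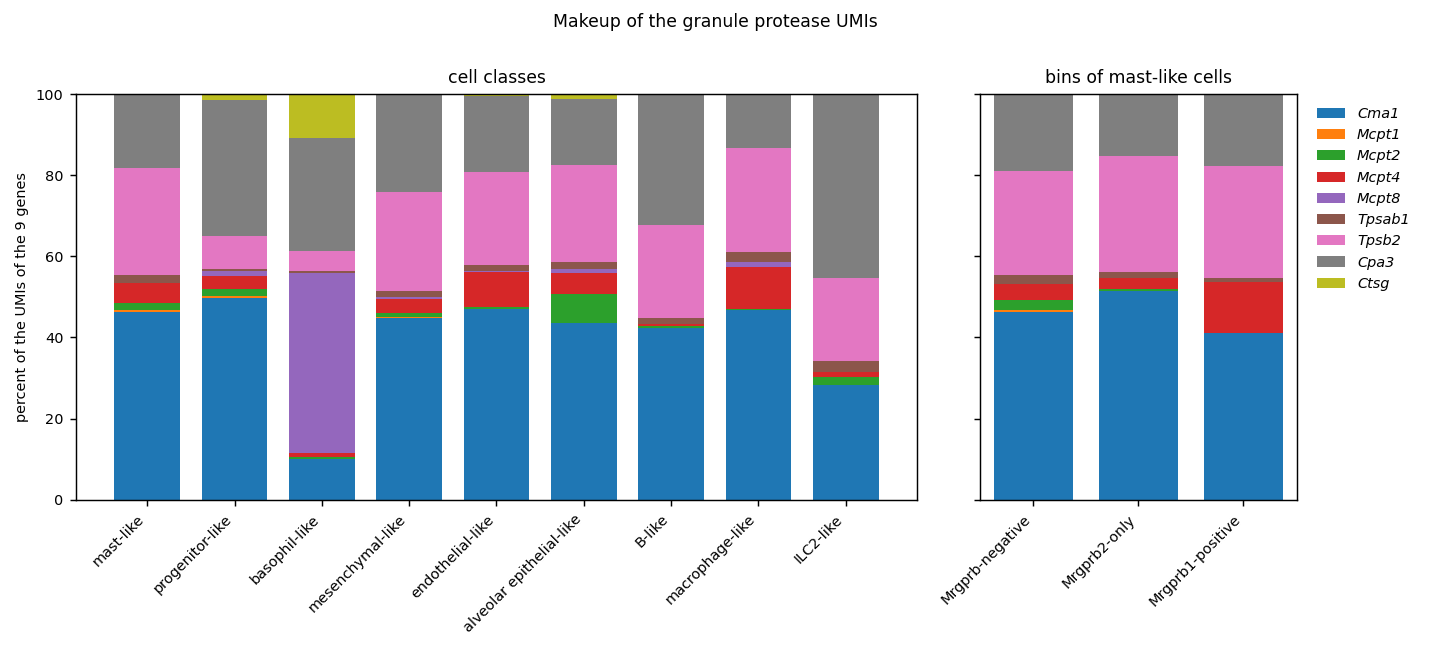
Percent of the UMIs of the 9 genes taken by each gene, in 9 classes (left) and in the 3 bins of mast-like cells (right), all litters summed. Mcpt8 takes 44.2% in basophil-like cells, Mcpt4 12.6% in Mrgprb1-positive against 3.84% in Mrgprb-negative mast-like cells, and Cpa3 45.3% in ILC2-like cells.

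Over 36 sums of 9 classes by litter and 13212 genes, the genes whose log2 levels went most closely with each protease were, by Pearson's r across these sums, Gcsam for Cma1 (0.95), Hdc for Cpa3 (0.96), Atp8b5 for Tpsb2 (0.93) and for Tpsab1 (0.92), Gp1ba for Mcpt4 (0.84), Cobl for Mcpt2 (0.86), Gm49794 for Mcpt1 (0.84), Il6 for Mcpt8 (0.90) and Ms4a2, a chain of the IgE receptor, for Ctsg (0.91). Prss34 was second for both Mcpt8 (0.88) and Ctsg (0.91), and Cma2 second for Mcpt1 (0.83). Atp8b5 and Smpx were among the 3 closest for Cma1, Tpsb2 and Mcpt4. Hdc, Ms4a2, Il6, Prss34 and Smpx were also in the marker lists that named the classes, so their values are not independent of the class names. The sums share 1 library, and classes that differ in all genes at once make such values high, so they are a description.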

How the data were processed

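Fetal lung cells of 4 litters were measured in 1 droplet library of 5′ RNA ends with a hashtag library. The authors counted UMIs with Cell Ranger 7 against mm10, per the submitters' processing notes, and deposited them as unnormalized UMI counts for each gene in each barcode. Their annotation is not given in the sources used here. Litters and their hashtags come from the labels, with hashtag rows matched by number. Fetuses were pooled per litter, so p-values of the DEX contrasts measure the spread between 2 litters a group. Those of the bin contrasts, fitted with litter as a term, measure the spread of bin differences within 4 litters of both treatments.

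All 10648 barcodes were assigned with HTODemux (Seurat 5.3.0, quantile 0.99). Of the 10409 with at least 200 genes and at most 5% mitochondrial UMIs, 7268 were singlets, and 736 hashtag doublets and 2405 barcodes without a hashtag were dropped. Doublets within a litter stayed in. Counts were scaled to 10000 UMIs per cell and cells clustered with scanpy 1.11.5 (2000 variable genes, 20 components, 15 neighbours, Leiden resolution 0.5), with the 9 proteases, Mrgprb1, Mrgprb2 and 6 sex-linked genes left out (17 genes). Clusters were named from marker lists by limits set after the clusters were seen, and 5.27% of cells stayed unnamed; the authors' annotation was not used. Counts were summed per litter and tested with edgeR 4.0.16 (quasi-likelihood, TMM factors, filterByExpr, Benjamini-Hochberg, adjusted p under 0.05), with DESeq2 1.42.0 as an alternative. Intervals and floors (3 counts) cover counting error only. The fits were tested on simulated data with 1 dispersion for all genes and changes set only in genes above a minimum level. A log2 change of 1 was called for 95.9% of changed genes in mast-like cells, 41.7% in basophil-like cells and 94.5% in the bins. For a log2 change of 2 the shares were 100%, 99.0% and 100%, and 5, 10 and 11 unchanged genes were called. A lack of calls thus says less in basophil-like cells. Positions are from GENCODE M21 and upstream sequences from RefSeq.

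Named are the 9 proteases in every comparison and at most 5 called genes per list of 3 lists, by size of change; the closest genes are the 3 of highest r. The members, lists and bins were chosen with earlier results of these data known. Columns of per-sample values left unused numbered 0. Whether replicate numbers pair the litters was left undecided. The correlation of DEX-1 with PBS-1 deviations was 0.16 in mast-like and -0.24 in basophil-like cells. With so few litters per group, these values can neither show nor exclude pairing.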

Additional observations from a re-analysis of the deposited data

Results flagged for a closer look

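In 4 cases a value stood apart from the other 3 litters of the same cells, by the gap to the nearest litter over the whole range, among 54 gene and cell group combinations examined; chance flags about 1 in 20 such groups. Mcpt8 in mast-like cells was at 38.4 CPM in DEX-2 and at 17.2 to 20.0 in the others, and in Mrgprb-negative cells alone at 43.5 CPM in DEX-2 and at 19.3 to 21.4 in the others. Mcpt8 in progenitor-like cells was at 147 CPM in PBS-2 and at 74.7 to 85.5 in the others. Mcpt1 in Mrgprb2-only cells was at 184 CPM in PBS-1 and at 0 to 14.4 in the others, with 1 cell holding 90.4% of the UMIs of that bin.

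Barcodes without a hashtag, which enter no comparison, also carried the proteases. The 27 mast-like ones had 19875 CPM of Cma1, and the 17 basophil-like ones had 4136 CPM of Mcpt8.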

How the results depend on the processing

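With 0 genes called, the count for DEX in mast-like cells became 11 by DESeq2, 163 without the filter on low counts, 160 with a replicate block, 1 without dividing cells and 4 to 96 without 1 litter; in basophil-like cells it became 2 by DESeq2, 23 without the filter and 5 to 42 without 1 litter, and stayed at 0 with the replicate block, while the crossed replicate block, added after the data were seen, called 20. The interaction called 15 to 32 genes without 1 litter. The labels do not say that replicate numbers pair the litters, and the check in the methods does not show it.

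Uncalled DEX differences of the proteases often changed sign: 5 of 9 in mast-like cells, 8 of 8 in basophil-like cells and 7 of 9 in the interaction did so under at least 1 alternative. In mast-like cells Mcpt1 became 0.0065 by DESeq2, 0.016 without the filter, 0.0062 with MULTIseqDemux, 0.0073 with a mitochondrial limit of 10%, 0.020 with finer clustering and 0.027 in Mrgprb-negative cells. Mcpt4 became 0.0075 by DESeq2, 0.011 without the filter, 0.012 with the mitochondrial limit of 10%, 0.030 with the replicate block, 0.16 in Mrgprb-negative cells, 0.080 in Mrgprb-positive cells and 0.047 without dividing cells, and Ctsg became -0.26 in Mrgprb-positive cells. In basophil-like cells MULTIseqDemux gave 0.039 for Cma1, 2.70 for Mcpt4 and 0.063 for Cpa3, and the crossed replicate block gave 0.069 for Mcpt2. Without 1 litter the mast-like differences ran from -2.43 to 0.99 for Mcpt1, -0.60 to 0.34 for Mcpt2, -0.32 to 0.42 for Mcpt4, -0.40 to 0.60 for Tpsab1 and -0.27 to 0.30 for Ctsg. The basophil-like ones ran from -1.58 to 1.52 for Cma1, -3.26 to 2.63 for Mcpt2, -9.39 to 1.88 for Mcpt4, -0.89 to 0.18 for Mcpt8, -2.33 to 1.48 for Tpsab1, -2.32 to 0.40 for Tpsb2, -0.32 to 0.18 for Cpa3 and -0.94 to 0.14 for Ctsg. The interaction ran from -1.54 to 1.34 for Cma1, -2.21 to 3.03 for Mcpt2, -1.06 to 10.3 for Mcpt4, -1.08 to 1.86 for Tpsab1, -0.37 to 2.17 for Tpsb2, -0.31 to 0.21 for Cpa3 and -0.25 to 1.16 for Ctsg.

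In the Mrgprb bins no protease changed sign between Mrgprb1-positive and Mrgprb-negative cells under any alternative run. Genes called there (1306) numbered 540 within the H19-led and 566 within the Mrgprb2-led cluster, where fewer genes were tested, and Rab44 became 0.33 in the latter. Genes called for Mrgprb2-only against Mrgprb-negative cells (1122) numbered 705 by DESeq2, 458 in bins cut after thinning, 608 with bins at 2 or more UMIs, 704 with no replicate block (no litter term), 84 and 61 within the 2 clusters, 529 in cells of 5000 UMIs or more and 652 to 917 without 1 litter; Mcpt4 became -0.096 and -0.85 within the H19-led and Mrgprb2-led clusters, and Ext1 (0.021) and Rab44 (0.21) turned in the latter. Between Mrgprb1-positive and Mrgprb2-only cells the count (376) was 190 after thinning, 146 with no replicate block, 143 and 212 within the clusters, 215 in cells of 5000 UMIs or more and 151 to 316 without 1 litter; Mcpt1 became 1.38 with bins at 2 or more UMIs, and Tpsab1 -0.038 without the filter, -0.044 within the H19-led cluster, -0.0085 in cells of 5000 UMIs or more and -0.042 to 0.099 without 1 litter. After thinning, Cma1 was seen in 5.32% of ILC2-like cells. Of the class levels under alternatives, 9 moved by at least the SD over litters and 72 did not. Finer clustering took progenitor-like Cpa3 from 2964 to 4696 CPM, Mcpt8 from 96.0 to 168 and Ctsg from 127 to 71.9. Averaging over cells took mast-like Cma1 from 24076 to 27938, Tpsb2 from 13747 to 15387 and Mcpt4 from 2544 to 3168. It took mast-like Cpa3 from 9409 to 8432, Ctsg from 59.8 to 44.9, and progenitor-like Tpsb2 from 716 to 1207. The causes of these shifts were not tested, beyond fewer genes or cells where stated.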
